A study of Mus musculus with 4 samples.

Results

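CD8 T cells of human origin were taken here as the cells of MDA-MB-231 tumors that carried transcripts of the T cell receptor complex and of the CD8 coreceptor and none of FOXP3, the regulatory T cell transcription factor. A member had at least 3 UMIs (unique molecular identifiers, each standing for 1 captured transcript) summed over CD3D, CD3E, CD3G and TRAC, at least 2 over CD8A and CD8B, 0 of FOXP3 and at most 4 over the myeloid genes C1QA, C1QB and LYZ. Of 42702 barcodes, 16327 passed the limits on detected genes, mitochondrial share and hashtag purity, 4144 of these were T cells, and 978 were members, 329 in reaction 1 and 649 in reaction 2. The members were thus chosen by their UMIs of these genes, and these genes are described and not tested. GZMK, GZMH and THEMIS, listed beforehand as markers of these cells with earlier results known, are likewise given as descriptions wherever CD8 T cells are set against other cells.

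The cells came from MISTRG mice, immunodeficient animals that express human cytokines such as M-CSF, GM-CSF and IL-3, were irradiated as pups and received human fetal liver CD34+ cells, so that human myeloid and lymphoid cells develop beside mouse tissue. MDA-MB-231, a human breast cancer cell line, was implanted in the mammary gland at day 0. The 7 untreated mice and the 7 mice that drank the drug maraviroc at 300 mg/l from day 21 and over 10 days, all received this kind of graft and this tumor line, and the tumors were taken on day 31. Live human CD45+ cells were sorted, marked by mouse with hashtag antibodies and loaded in 2 reactions of droplet 3′ RNA sequencing, with untreated mice 1 to 4 and maraviroc mice 1 to 3 in reaction 1 and untreated mice 5 to 7 and maraviroc mice 4 to 7 in reaction 2. How the mice were related by donor is not given in the sources used here, and a sort for CD45 and a fixed loading mean that shares, not cell numbers per tumor, can be compared.

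CD8 T cells recognize peptides on MHC class I through the T cell receptor, with CD8 as coreceptor, and kill through granules that hold perforin, granulysin and the granzymes. GZMB is the granzyme of effector killers, whereas GZMK marks many circulating and tissue memory cells. In tumors, chronic stimulation is known to raise inhibitory receptors such as PDCD1, LAG3, HAVCR2 and TIGIT, and cells that keep TCF7 are known to renew the others. CCL3, CCL4 and CCL5 are chemokines that activated CD8 T cells make.

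The cells near the limits of the rule were described first. CD8A and CD8B were both detected in 623 members, CD8A alone in 304 and CD8B alone in 51, and 261 members lay exactly at the limit of 2 CD8 UMIs, with another 287 FOXP3-negative T cells just outside it at 1. Over these steps of the CD8 sum, from 0 through 1 and 2 to 3 or more, GZMK stood at 89.0, 197, 252 and 244 UMIs scaled to CPM, the count of a gene relative to all UMIs of the cells, THEMIS, a signalling protein of T cell selection, at 221, 294, 373 and 481, and TYROBP, an adaptor of natural killer (NK) receptors, at 294, 219, 177 and 65.6. Cells at 1 CD8 UMI lay between the CD8-negative cells and the members for these 3 genes. For CD4, at 81.1, 21.1, 25.2 and 23.6 CPM, and CCL5, at 1678, 2910, 3160 and 2759 CPM, they lay with the members. A further 61 cells met the CD8 limit but held FOXP3, and 117 met all limits but that on myeloid genes. The 2 reactions shared 136 barcodes, and 16 members carried a barcode also present in the other reaction.

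UMIs of genes known from NK and gamma-delta T cells were common among the members. A UMI of TRDC, the constant chain of the delta receptor, TYROBP or FCER1G, an adaptor of Fc receptors, was present in 485 of the 978 members (49.6%). The share was 60.7% of CD8-negative FOXP3-negative T cells and 28.4% of FOXP3-positive T cells. It was 98.5% of NK cells under the narrow gate described below, which was chosen after seeing the data. Macrophages, which also express TYROBP and FCER1G, stood at 99.9% and B cells, which should lack them, at 27.6%. TRDC by itself was found in 13.1% of members, 1.98% of macrophages and 0.787% of B cells. Whether these UMIs were the members' own or came from other cells was not tested. Among mice this share of members ran from 30.2% in maraviroc 7 to 86.7% in untreated 7, with a median of 61.6% in the 7 untreated and 43.2% in the 7 maraviroc mice. Summed over the 7 NK markers, the level was 506 ± 481 CPM (SD, n = 14 mice), FCER1G being the most abundant by UMIs and none at 0. It was 2078 ± 328 CPM in the narrow NK gate, 2204 ± 289 CPM in a first, wider NK gate and 3147 ± 418 CPM in macrophages. Both NK gates were set on UMIs of genes that include the markers KLRF1, NCR1, TYROBP and FCER1G. The gates themselves thus raised the sums of the NK cells and their share of 98.5%. In members the highest sums, 1708, 1379 and 859 CPM, belonged to untreated 2, untreated 7 and maraviroc 1, the 3 mice with fewer than 20 members. The 7 macrophage markers summed to 114 ± 32.1 CPM against 6300 ± 926 CPM in macrophages. They include C1QA and LYZ, which the rule for members limited, so that the gate itself held this sum down. The 7 thymocyte markers held 2 UMIs in all with 5 of them at 0, and mast cell genes reached 1907 CPM in untreated 2. This mouse had only 11 members.

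Members held a median of 7680.5 UMIs and 3146 genes per cell, with a similar depth in the 2 reactions (7548 and 7801 UMIs). After the nuclear transcript MALAT1 the MHC class I chain B2M and cytoskeletal, ribosomal and mitochondrial genes, the granule gene GNLY was among the 10 most abundant by UMIs at 3936 CPM, and CCL5 among the 20 most abundant at 2846 CPM.

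Whether maraviroc went with more or fewer CD8 T cells was asked per mouse. Untreated mice held 75, 11, 63, 67, 218, 86 and 15 members and maraviroc mice 16, 32, 65, 122, 121, 44 and 43. As a share of kept human CD45+ cells, untreated mice lay between 1.15% and 17.3% (median 6.01%), and the means were 6.74 ± 5.42% against 5.01 ± 3.05% (SD, n = 7 and 7). The ranges overlapped, and the exact two-sided permutation test of treatments within reactions gave p = 0.413. Among T cells the shares were 24.9 ± 10.0% and 18.2 ± 7.05%, with p = 0.174 by the same exact permutation test. The size of both differences moved with the setting and no setting passed the test. From -2.10 percentage points of kept cells and -7.01 of T cells, they went to -0.771 and -1.76 when members with TRDC, TYROBP or FCER1G were left out, to -0.527 and -2.35 with cells thinned before the gates, and to -3.95 and -10.03 in mice with at least 20 members (exact permutation p = 0.107 and 0.0533), and that of kept cells was -0.731 at a hashtag limit of 80%. The difference in the share of kept cells rested on untreated 5, the mouse with 218 members, since without it the sign turned, to a maraviroc share 0.152 percentage points above the untreated one (p = 0.931 by exact permutation).

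**Figure D1:**
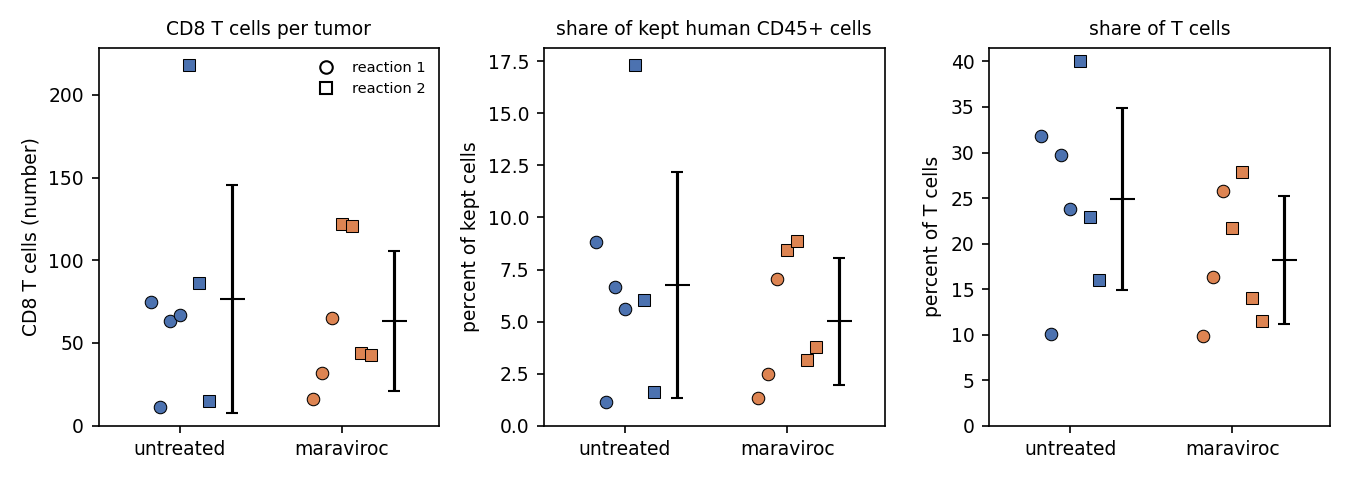
CD8 T cells captured per mouse, as a number, as percent of kept human CD45+ cells and as percent of T cells. Each mouse is 1 point (circles reaction 1, squares reaction 2), with the mean and SD of the 7 mice of each treatment beside the points. The untreated point at 218 cells is untreated 5, and the treatments overlap in all 3 panels.

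CD8 T cells were then set against the CD8-negative FOXP3-negative T cells of the same mouse (1731 cells, 14 mice), by edgeR on UMIs summed per mouse with the mouse as a block. Some genes of killing, tissue residency and inhibitory receptors were higher in CD8 T cells, such as CST7, ITGAE and LAG3, and most of the naive and memory genes tested were lower. Of 8550 genes tested, 3.31% were higher and 6.42% lower at an adjusted p under 0.05. Of 11 cytotoxic granule genes tested beside the markers GZMH and GZMK, 4 were higher (CST7, FASLG, GZMM and NKG7) and 2 lower (GNLY and SRGN), with a median log2 fold change of 0.19 against 0.00 over all genes. The calls of these genes other than CST7 depended on the setting. FASLG and SRGN lost theirs in reaction 1 alone (adjusted p = 0.713 and 0.113). GZMM lost its call with a CD8 limit of 3, with both CD8 genes needed, at a hashtag limit of 80%, in members without TRDC, TYROBP or FCER1G, in reaction 1 alone (adjusted p = 0.986) and without maraviroc 4, untreated 5 or untreated 6. NKG7 and GNLY lost theirs without myeloid and B cell UMIs with folds close to those before (log2 fold changes 0.52 and -0.63 against 0.49 and -0.66, adjusted p = 0.0549 and 0.0591), and without the mouse block, NKG7 also in reaction 1 alone and GNLY at a hashtag limit of 80% and in reaction 2 alone. As descriptions, GZMH stood at 117 against 36.6 CPM, GZMK at 197 against 91.7 and THEMIS at 400 against 197. CST7, which encodes an inhibitor of granule proteases, was between 174 and 395 CPM in CD8 T cells (median 251) and between 74.8 and 207 CPM in the CD8-negative cells (median 137), and rose by 0.84 ± 0.11 on the log2 scale (SE, adjusted p = 3.69e-05), higher in 14 of 14 mice. GZMB was not called, at 855 against 671 CPM (log2 fold change 0.29 ± 0.12, adjusted p = 0.141).

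Residency and checkpoint genes followed. ITGAE, the alpha chain of the CD103 integrin that binds epithelial E-cadherin, ranged from 72.6 to 449.6 CPM in CD8 T cells (median 296) and from 76.0 to 177 CPM in the other T cells (median 100), a log2 fold change of 1.28 ± 0.18 (SE, adjusted p = 4.49e-05) with 12 of 14 mice higher. ITGA1, a collagen-binding integrin, was higher by 0.78 ± 0.11 on the log2 scale. These 2 were the higher ones of 10 residency genes tested, and DUSP6, a phosphatase that restrains ERK, was the lower one. LAG3, an inhibitory receptor for MHC class II, was at a median of 132 against 53.1 CPM, rose by 1.24 ± 0.15 (log2, SE) and was higher in all 14 mice. With TIGIT (0.61 ± 0.10) and the costimulatory receptor TNFRSF9 (1.16 ± 0.18) it made 3 higher of 15 checkpoint genes, and CD244, a receptor shared with NK cells, was the lower one. Of 16 cytokine and chemokine genes, 8 were lower, among them CSF2 and LTA, with a median log2 fold change of -0.42, and CCL5 alone was higher, by 0.72 ± 0.11 on the log2 scale, at 2931 against 1864 CPM. In reaction 1 alone ITGA1, TIGIT, TNFRSF9 and CCL5 kept their direction and were not called (adjusted p = 0.104, 0.166, 0.3 and 0.0594). FABP5, a fatty acid carrier, and SQLE, of cholesterol synthesis, were the higher 2 of 12 lipid genes, and PLIN2, which coats lipid droplets, was the lower one.

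Naive and memory genes were mostly lower. Of 12 naive and memory genes tested, 9 were lower and 1, the costimulatory receptor CD27, higher. IL7R, the receptor that keeps resting T cells alive, had a median of 16.3 CPM in CD8 T cells against 91.3 in the others (log2 fold change -2.05 ± 0.38, SE), TCF7, a transcription factor of naive and memory cells, 54.7 against 112, and KLF2, which sustains recirculation, 35.6 against 94.3. TCF7 and KLF2 were lower in CD8 T cells in 14 of 14 mice. IL7R and TCF7 were not called in reaction 1 alone (adjusted p = 0.19 and 0.166), nor CD27 in reaction 2 alone (adjusted p = 0.0505) or against the CD8-negative cells with a CD4 UMI described next (log2 fold change 0.44, adjusted p = 0.0537). CCR7, a homing receptor of lymph nodes, lost its call in 8 of the 14 omissions of a mouse, by DESeq2, without the mouse block and in either reaction alone, and LEF1, a partner of TCF7, in 3 omissions, without the mouse block, without myeloid and B cell UMIs and in reaction 1 alone. TNFRSF4, the OX40 receptor, ranged from 7.12 to 52.8 CPM in CD8 T cells and from 58.6 to 249 CPM in the others, so that the ranges did not overlap. CD40LG, the helper signal to B cells and macrophages, showed the largest fall among genes named by the rule on fold change, by 3.54 ± 0.45 on the log2 scale. Outside the lists, ADAMTS6, PIP5K1B and KIF21A, with log2 fold changes of 2.17, 2.64 and 2.16, led the higher genes. CD40LG, at a mean of 4.99 against 36.9 CPM, and PIP5K1B, at 50.003 against 7.11 CPM, were near the filter on low counts and could be tested in only 2 and 3 of the 14 omissions of a mouse, in each of which they were called.

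The CD8-negative cells were mixed, since 42.2% of them held TRDC, and the 540 of them with a CD4 UMI (12 mice) were therefore taken as a second comparator, chosen after seeing the data. Against these, 9.77% of 6716 genes were higher and 10.9% lower, and 10 of 11 granule genes beside GZMH and GZMK were higher and 1 lower, with a median log2 fold change of 1.47 against 0.01 over all genes. GZMB, not called above, ranged from 521 to 1337 CPM in CD8 T cells and from 44.1 to 719.8 CPM in CD4-bearing cells, a log2 fold change of 2.002 ± 0.24 (SE, adjusted p = 5.03e-06). NKG7 rose by 2.52 ± 0.27, ITGA1 by 2.41 ± 0.24 and CCL4 by 1.34 ± 0.24 on the log2 scale. Of 18 proliferation genes, 13 were higher and 0 lower. GNLY, XCL1 and XCL2, lower in CD8 T cells than in all CD8-negative cells (log2 fold changes -0.66, -0.75 and -0.50), were higher than in CD4-bearing cells by 1.47, 0.69 and 1.71. The lower levels of XCL1 and XCL2 were not called at a hashtag limit of 80% (adjusted p = 0.0559 and 0.498) or without the mouse block, and that of XCL2 also not with a CD8 limit of 1, without myeloid and B cell UMIs or in reaction 2 alone.

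Against FOXP3-positive T cells (1027 cells, 12 mice), the differences were wide, with 22.3% of 7306 genes higher and 22.7% lower. Granule genes beside GZMH and GZMK were higher for 9 of 11 and lower for 1, and NK receptor genes were higher for 11 of 12 tested. KLRK1, the activating receptor NKG2D, ranged from 168 to 291 CPM in CD8 T cells and from 0 to 37.6 CPM in FOXP3-positive cells, a log2 fold change of 4.63 ± 0.23 (SE, adjusted p = 4.61e-13). KLRC1, the inhibitory receptor NKG2A, rose by 4.24 ± 0.25, the residency factor ZNF683 by 4.21 ± 0.26 and IFNG by 3.82 ± 0.29. All 18 proliferation genes were higher, among them MKI67 at a median of 314 against 167 CPM (log2 fold change 0.90 ± 0.13). In the other direction, IL2RA, the high-affinity interleukin-2 receptor chain, was at 14.1 against 610 CPM and CTLA4 at 53.2 against 414 CPM, both with ranges that did not overlap. Chemokine receptors were lower for 10 of 12 tested, among them CCR4 by 3.02 ± 0.26 on the log2 scale (SE). Of 10 naive and memory genes, 6 were lower, among them CD28, IL7R and KLF2, and 3 were higher, namely TCF7, FOXP1 and, by 2.84 ± 0.17, BACH2, a repressor that holds back effector differentiation. IL2RA, CTLA4 and CD4 belong to the definition of regulatory cells, so that their direction is not independent of the FOXP3 gate.

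**Figure D2:**
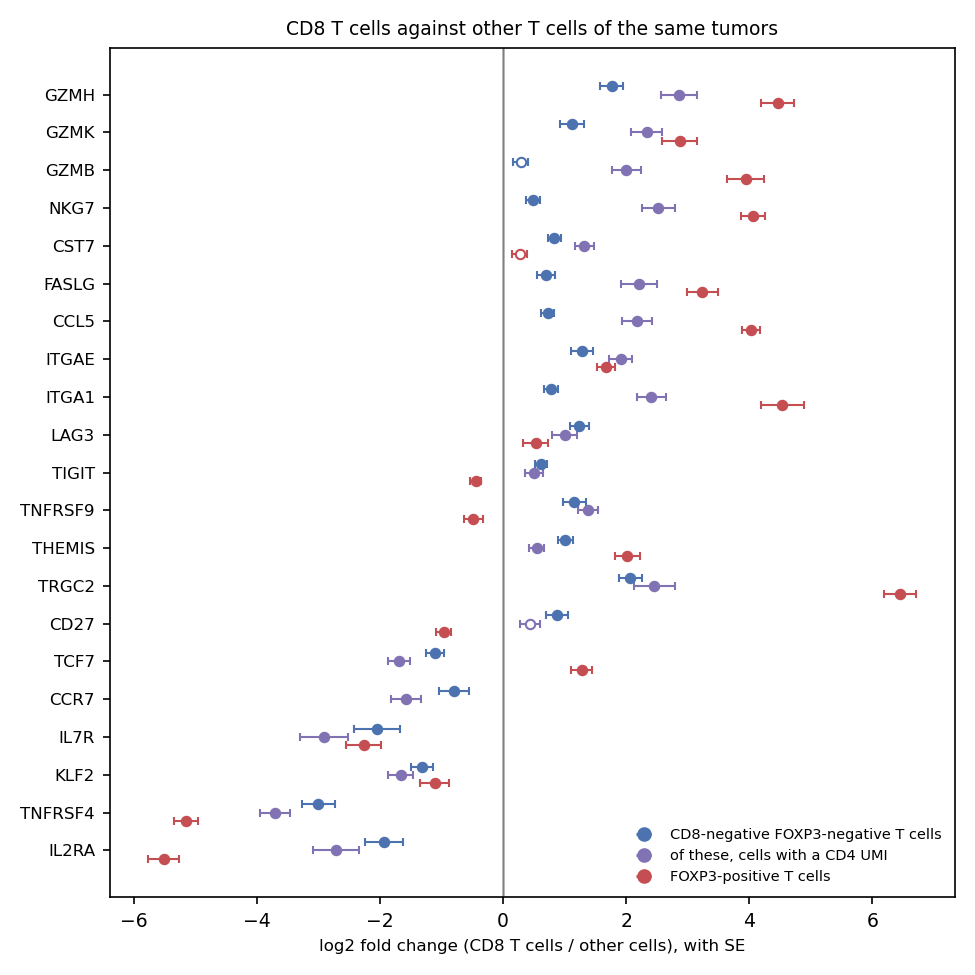
Log2 fold change with SE of 21 genes in CD8 T cells against CD8-negative FOXP3-negative T cells (blue), the subset of these with a CD4 UMI (purple) and FOXP3-positive T cells (red), filled where the adjusted p was under 0.05, with genes too low to test in a comparison left out of it. GZMB lies at 0.29, 2.002 and 3.94 in the 3 comparisons, and GZMH, GZMK and THEMIS are descriptions.

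NK cells share the killing machinery, and the comparison asked what set CD8 T cells apart from them. The first NK gate held genes of plasmacytoid dendritic cells and mast cells, as 26.6% of 8155 genes higher and 30% lower in CD8 T cells included LILRA4, CPA3 and TPSAB1 on the lower side. A narrower gate, chosen after seeing the data, kept 330 cells, of which 321 in 13 mice could be summed. Against these, 5.1% of 4906 genes were higher and 6.81% lower. GNLY was at 5393 CPM in CD8 T cells and 14515 CPM in NK cells (log2 fold change -1.81 ± 0.18, SE), lower in 13 of 13 mice. GZMB stood at 845 against 1675 CPM (-1.08 ± 0.17, adjusted p = 7.44e-05) and XCL2, a chemokine that draws cross-presenting dendritic cells, at 419 against 940 CPM. Against the first gate the fall of GZMB was smaller, between -0.52 and -0.35 on the log2 scale over omissions of a mouse. There it was not called at a hashtag limit of 80%, in reaction 1 alone or with cells thinned to 1500 UMIs (adjusted p = 0.24, 0.309 and 0.306). Of 11 granule genes beside GZMH and GZMK 7 were lower and 0 higher, whereas against the first gate 8 were higher and 2 lower (median log2 fold change 0.84). The count thus turned with the gate. GZMK, as a description, stood at 191 against 106 CPM in the narrow comparison. T cell receptor genes beside THEMIS were higher for 6 of 11 and lower for 1, CD247. Both NK gates allowed no UMI of CD3D, CD3G or TRAC, and members needed UMIs of the CD3 genes or TRAC. The direction of T cell receptor genes is thus not independent of the gates. CD27 (median 139 against 15.1 CPM) and LAG3 (median 118 against 10.8 CPM) were higher in all 13 mice by 2.92 ± 0.26 and 2.58 ± 0.30 on the log2 scale. ITGAE was higher by 1.55 ± 0.18, and none of 17 proliferation or 16 interferon-stimulated genes was called. Against the first gate 18 of 18 proliferation genes were higher and of 16 interferon-stimulated genes 3 were higher and 3 lower. NKG7, PRF1, HOPX and CTSW, among the 7 above, were higher in CD8 T cells against the first gate and lower against the narrow one, so that no direction is given for them against NK cells.

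CD8 T cells with a UMI of MKI67 or TOP2A, a proliferation antigen and a topoisomerase of replicating cells, were set against those without. They were 488 of the 978 members (49.9%), against 48.2% of the 330 cells of the narrow NK gate, which was chosen after seeing the data, 36.8% of CD8-negative FOXP3-negative T cells, 26.3% of macrophages and 7.87% of B cells. At an equal depth of 1500 UMIs the shares were 27.2% of members, 24.2% of these NK cells, 20.04% of the CD8-negative cells, 12.2% of macrophages and 4.17% of B cells, in cells with medians of 7701, 7812.5, 7207, 11842 and 6422.5 UMIs before thinning. The 18 proliferation genes summed to 3769 ± 899 CPM (SD) in members, 3426 ± 1217 CPM in the narrow and 1732 ± 686 CPM in the first NK gate. The closeness to NK cells thus depended on the gate. The members with these UMIs were deeper, at a median of 10398 UMIs per cell against 6031.5 in the others, and with cells thinned 220 of 971 genes tested were called (22.7%) in place of 1531 of 5519. In the fit without thinning, 13.8% of 5519 genes were higher and 13.9% lower in 11 mice. All 15 further proliferation genes fitted were higher, such as RRM2, a subunit of ribonucleotide reductase, at a median of 237 against 5.96 CPM. These are descriptions, since cell cycle genes go with the split on MKI67 and TOP2A by construction. The interferon-stimulated genes were lower for 11 of 16 and the naive and memory genes for 8 of 8 tested. IFIT1, an antiviral sensor of RNA, was at a median of 59.7 against 114 CPM (log2 fold change -1.05 ± 0.17, SE), and CD27 at 116 against 206 CPM. GZMK fell by 1.004 ± 0.17 on the log2 scale, lower in 11 of 11 mice, CCL5 by 0.87 ± 0.06 and TXNIP, a brake on glucose uptake, by 1.77 ± 0.14. Higher beside the cell cycle were FABP5 (0.95 ± 0.16), ACAT2 (0.85 ± 0.16) and SQLE (0.61 ± 0.15) of lipid and sterol handling, and CCL3 and IFNG by 0.59 ± 0.10 and 0.65 ± 0.14. In reaction 1 alone GZMK (log2 fold change -0.54), ACAT2, SQLE, CCL3 and IFNG were not called (adjusted p from 0.0892 to 0.304), nor was IFNG without the mouse block (adjusted p = 0.0985). Cell cycle transcripts take up a part of the UMIs of such cells, and TMM scaling was the only scaling tried for this contrast beside DESeq2 size factors.

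GZMB and GZMK overlapped in part. With each cell thinned to 1500 UMIs, to compare detection at equal depth, 976 members could be used, and GZMB was found in 47.8% of them and GZMK in 25.4% (73.1% and 44.2% without thinning). In macrophages, at a median of 11842 UMIs before thinning against 7701 in members, the shares were 1.58% and 0.256%, and 0 of 120 B cells held either, which allows up to 3.03% of B cells with a UMI at this depth (exact 95% interval, counting error only). Without thinning, 2 of 127 B cells held GZMB and 1 held GZMK (1.57% and 0.787%), and of 6674 macrophages 435 held GZMB and 58 GZMK (6.52% and 0.869%). Both genes were detected in 94 members, GZMK alone in 154, GZMB alone in 373 and neither in 355, so that GZMB was present in 37.9% of GZMK-positive and 51.2% of GZMK-negative cells. Summed over the cells of each treatment, with no test and with mice of unequal size, GZMB was in 37.7% of 106 GZMK-positive and 59.8% of 428 GZMK-negative cells of untreated mice. In maraviroc mice it was in 38.03% of 142 and 39% of 300 cells, and maraviroc 4 alone held 61 of the 142. Of the mice with at least 10 GZMK-positive cells, the share was lower among these in 4 of 4 untreated and 3 of 5 maraviroc mice, and higher in maraviroc 3 and 7.

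The share of CD8 T cells with GZMB was lower in maraviroc mice. Untreated mice had shares of 61.3, 72.7, 52.4, 59.1, 55.5, 45.3 and 66.7%, and maraviroc mice 37.5, 53.1, 36.9, 40.2, 31.7, 50 and 34.9%. The groups overlapped, since maraviroc 2 lay above untreated 3 and 6 and maraviroc 6 above untreated 6. The means were 59.0 ± 9.08% and 40.6 ± 7.97% (SD, n = 7 and 7), and within reactions the difference averaged -17.8 percentage points, at -18.9 in reaction 1 and -16.7 in reaction 2 (exact permutation p = 0.00408, adjusted over 8 shares 0.0327). The test of a difference between reactions gave p = 0.879 by exact permutation. This result depended on the depth and on which cells and mice were counted. Without thinning the difference was -12.4 points (adjusted p = 0.264 by exact permutation) and at 2500 UMIs -14.2 (adjusted p = 0.0784), so that it was called only at 1500 UMIs. Among the members without a UMI of TRDC, TYROBP or FCER1G, in the 11 mice with at least 10 of them, the difference was -5.03 points (adjusted p = 0.587 by exact permutation). The same 11 mice are those with at least 20 members, and with all their members the difference was -11.9 (adjusted p = 0.267 by exact permutation). Leaving out single mice of the 14 kept the difference between -20.4 and -15.1, with 9 of the 14 omissions ending the call. On summed counts GZMB was not called either, at 966 ± 380 CPM against 743 ± 275 CPM.

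GZMK went the other way without passing the test. Untreated mice had shares of 22.7, 0, 17.5, 6.1, 28.4, 13.95 and 0% and maraviroc mice 18.8, 21.9, 30.8, 50, 23.3, 27.3 and 25.6%, a difference of 14.8 points (exact permutation p = 0.0310, adjusted 0.124). The untreated mice at 0% were untreated 2 and 7, with 11 and 15 members, and in the mice with at least 20 members the difference was 10.6 points (adjusted p = 0.551 by exact permutation). In the members without TRDC, TYROBP or FCER1G of these same 11 mice it was 14.2 points (adjusted p = 0.533 by exact permutation). Adjusted p was 0.947 for the shares with IFNG (13.0 and 14.3% in untreated and maraviroc mice), any of 5 checkpoint genes (54.1 and 52.7%), MKI67 or TOP2A (26.8 and 26.9%) and any of ITGAE, ITGA1 and ZNF683 (59.2 and 59.1%).

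**Figure D3:**
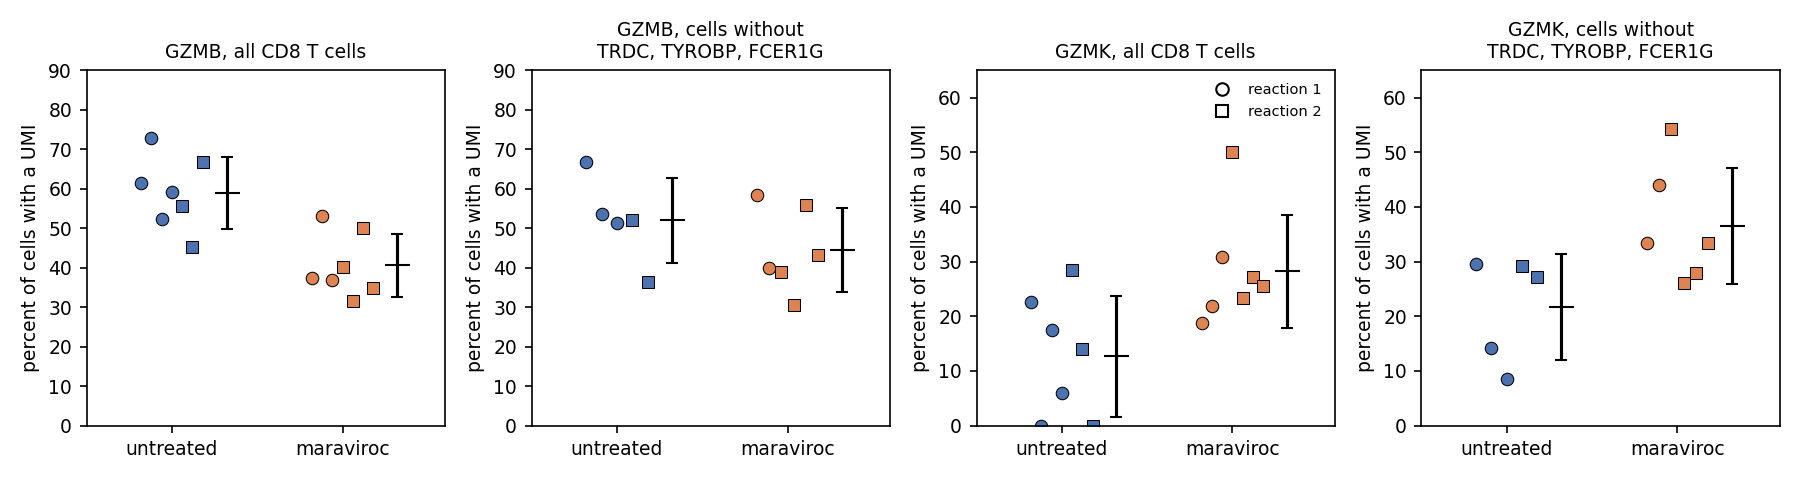
Percent of CD8 T cells with a GZMB or GZMK UMI after thinning to 1500 UMIs, 1 point per mouse (circles reaction 1, squares reaction 2) with mean and SD, for all members (14 mice) and for members without TRDC, TYROBP and FCER1G (11 mice). For GZMB the means in 14 mice were 59.0 and 40.6%. The difference in members without these genes was -5.03 points, against -11.9 points in all members of the same 11 mice. For GZMK the difference was 14.8 points in 14 mice, and 14.2 points in members without these genes against 10.6 in all members of the same 11 mice.

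Other cells of the same tumors were examined for the 2 granzymes, a comparison added after seeing the data. The GZMB share was 39.2 ± 14.7% in untreated and 30.3 ± 13.1% in maraviroc mice among CD8-negative FOXP3-negative T cells (SD, n = 7 and 7, exact permutation p = 0.331). It was 16.7 ± 9.62% and 13.6 ± 10.5% among those with CD4 (n = 5 and 7), and 64.9 ± 12.7% and 70.9 ± 8.10% among NK cells of the narrow gate (n = 6 and 7). Within reactions these differences averaged -6.93, -0.467 and 4.55 points, beside -17.8, -13.2 and -17.8 points for the CD8 T cells of the same mice. The values are set side by side at 1500 UMIs. Tests of the gaps are left out, since GZMB was taken up here for its difference in CD8 T cells. The GZMK share differed by 1.83 points in CD8-negative cells, 2.22 in CD4-bearing cells and 4.52 in these NK cells between maraviroc and untreated mice (exact permutation p = 0.469, 0.46 and 0.307). In the mice with both kinds of cells the CD8 T cells differed by 14.8, 9.38 and 18.4 points, given beside these as a description since GZMK marks CD8 T cells.

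Across all genes, maraviroc and untreated CD8 T cells were nearly indistinguishable by test. Of 7172 genes in 14 mice, 2 were called and both were higher with maraviroc, 0.0279% of those tested, whereas 367 had an unadjusted p under 0.05. No gene was called for a difference in the response between reactions (264 with an unadjusted p under 0.05). None of the 24 lists held a called gene. The median log2 fold change was -0.20 for the granule genes, -0.20 for the checkpoint genes, -0.24 for the NK receptor genes, 0.12 for proliferation and 0.13 for naive and memory genes, against 0.01 over all genes.

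ARID5B, a DNA-binding protein of the ARID family that acts with a histone demethylase, was the more abundant of the 2. It ranged from 153 to 317 CPM in untreated mice (median 255) and from 271 to 541 CPM in maraviroc mice (median 436). Only untreated 7, at 317 CPM, lay above the lowest maraviroc mouse. The log2 fold change was 0.87 ± 0.13 (SE, adjusted p = 0.013), and it was 1.06 with an adjusted p of 0.062 in members without TRDC, TYROBP or FCER1G. RTKN2 ranged from 23.4 to 80.1 CPM (median 36.5) in untreated and from 79.7 to 176 CPM (median 108) in maraviroc mice, with only untreated 3 reaching the maraviroc range. Its log2 fold change was 1.40 ± 0.22 (SE, adjusted p = 0.013), and it was 1.34 with an adjusted p of 0.524 in members without those markers. Neither gene was called without maraviroc 3 or without untreated 5, and ARID5B was not called without maraviroc 2 (adjusted p = 0.0527). Both also lost their calls without myeloid and B cell UMIs (adjusted p = 0.206 for each) and at a hashtag limit of 80% (0.0532 and 0.0986), with log2 fold changes of 0.998 and 1.07 for ARID5B and 1.38 and 1.55 for RTKN2, and in either reaction alone, and RTKN2 with CD8 limits of 1 and 3 (0.068 and 0.0662).

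In 5 genes the mice did not overlap between the groups, with the maraviroc side higher (0.0697% of those tested), and in 1 with it lower (0.0139%). The lower one was CSF1, the macrophage growth factor, at 178, 257, 322, 369, 262, 185 and 501 CPM in untreated mice 1 to 7 and 174, 163, 96.6, 147, 109, 94.8 and 121 CPM in maraviroc mice 1 to 7. Every maraviroc mouse was below every untreated one, the closest being maraviroc 1 and untreated 1, but with a log2 fold change of -1.18 ± 0.22 (SE) its adjusted p was 0.0806. KLRC1 had a mean of 289 CPM in maraviroc and 525 CPM in untreated mice, with untreated 3, at 288 CPM, inside the maraviroc range (log2 fold change -0.85 ± 0.18, adjusted p = 0.232). CA5B, a mitochondrial carbonic anhydrase, and HERPUD1, of the endoplasmic reticulum stress response, were among the 5 higher ones, at 52.4 against 30.4 and 72.3 against 46.8 CPM (adjusted p = 0.232 and 0.556). The related receptors KLRC2 and KLRC3 had means of 123 and 58.7 CPM with maraviroc against 219 and 119 CPM, with adjusted p = 0.859 and 0.935.

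Stricter CD8 gates gave other calls. With at least 1 UMI each of CD8A and CD8B, 623 members in place of 978, 11 mice had 10 or more cells. Of 6671 genes tested 6 were called (0.0899%), each without overlap between the groups. The share of all genes without overlap is not given for this gate, so nothing is read from that separation. ARID5B rose by 1.005 ± 0.15 and RTKN2 by 1.70 ± 0.27 on the log2 scale, and CSF1 fell by 1.71 ± 0.27, the lipid phosphatase PLPP1 by 1.18 ± 0.18, KLRC1 by 1.10 ± 0.19 and ZNF282, a zinc finger protein, by 1.51 ± 0.26 (SE, adjusted p from 0.0112 to 0.0217). CSF1 stood at 77.9 against 284 CPM under this gate and PLPP1 at 156 against 333 CPM, whereas CA5B, HERPUD1, KLRC2 and KLRC3 were not called (adjusted p from 0.645 to 0.873). With a CD8 sum of at least 3, also in 11 mice, 2 of 7179 genes were called (0.0279%), ARID5B and CSF1 (adjusted p = 0.0156 for both), and RTKN2, KLRC1 and PLPP1 were not. The gate leaves out the 3 mice with the fewest members and the highest NK marker sums. Leaving out the same 3 mice under the first gate gave 1 call in 8100 genes (0.0123%), ARID5B (adjusted p = 0.0126), with RTKN2 at 0.0864, CSF1 at 0.16, PLPP1 at 0.374 and KLRC1 at 0.359.

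**Figure D4:**
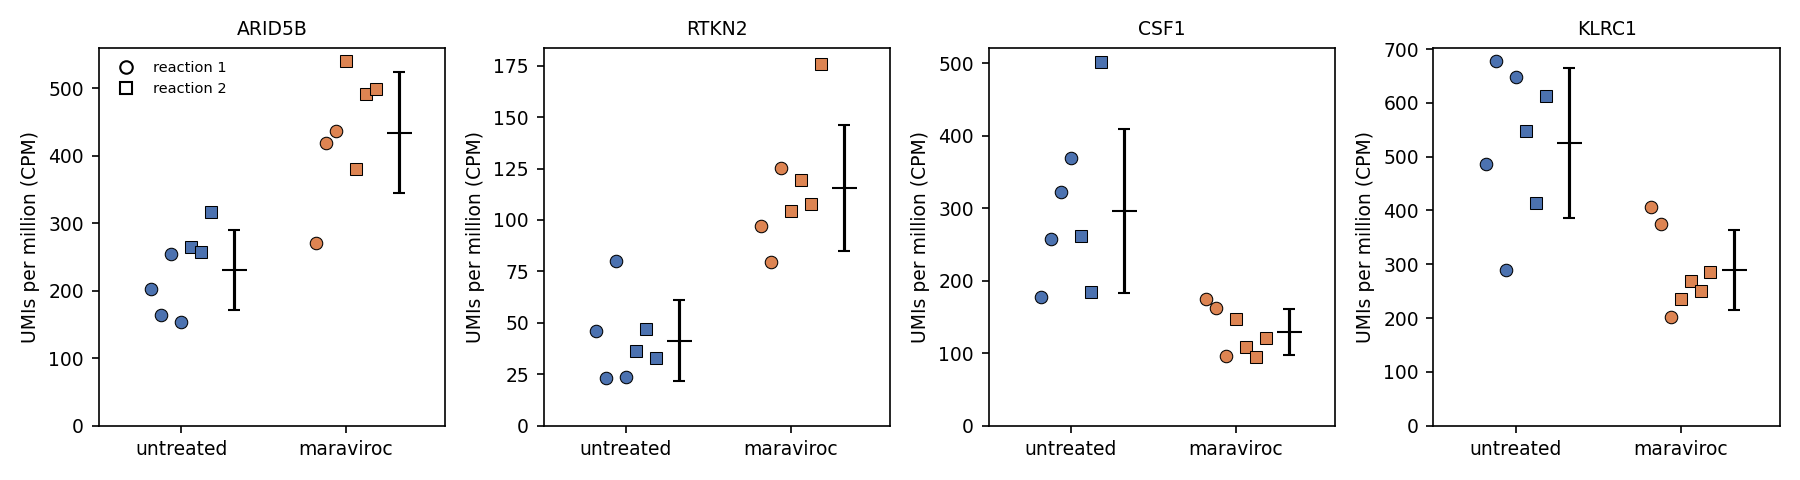
CPM of ARID5B, RTKN2, CSF1 and KLRC1 in CD8 T cells, 1 point per mouse (circles reaction 1, squares reaction 2) with the mean and SD of 7 mice per treatment. ARID5B and RTKN2 were called (adjusted p = 0.013), CSF1 separated the groups without overlap at an adjusted p of 0.0806, and KLRC1 was not called.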

How the data were processed

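The authors deposited, per reaction, UMI counts per gene and hashtag, without normalization, for the barcodes kept as cells. Per the submitters' processing notes, Cell Ranger 9.0.1, GRCh38 and Seurat 5.1.0 were used. GEO names the mouse as organism, while the transcripts are human. The treatment of each mouse was read from the hashtag names. Barcodes with above 600 and at most 6000 detected genes, under 12.5% mitochondrial UMIs and at least 60% of hashtag UMIs on 1 hashtag were kept. No doublet caller was run, so that remaining doublets were limited by hashtag purity and the limit on myeloid UMIs. Without a genotype check, hashtags stand for mice. Kept cells held a median of 5785 UMIs in reaction 1 and 10663.5 in reaction 2.

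Counts were summed per mouse (at least 10 cells) and tested with edgeR 4.0.16 in R 4.3.3 (TMM, filterByExpr, quasi-likelihood, Benjamini-Hochberg adjustment over all genes tested). Treatment was fitted with the reaction as a term, and cell types of the same mice with the mouse as a block. Genes of the rules and sex-linked markers were left out before adjustment. The mouse block is the pairing of these within-mouse comparisons. DESeq2 1.42.0 was an alternative. Shares of cells were compared by exact two-sided permutation of treatments within reactions (1225 regroupings, fewer where mice dropped out). The NK gate needed at least 3 UMIs summed over KLRF1, NCR1, TYROBP, FCER1G and KLRD1. It allowed none of CD3D, CD3G, TRAC, MS4A1 and CD79A, and kept the members' limit on myeloid genes. The narrow one needed in addition at least 2 UMIs summed over KLRD1, KLRF1 and NCR1 and none of CD4, LILRA4, CD1C and CCL17.

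On simulated counts for treatment, 89.6% of true log2 changes of 1 and 100% of those of 2 were recovered with 8 false calls, and for CD8 against CD8-negative T cells 98% and 100% with 14 false calls. The simulation gave all genes the same common dispersion, held no effect of reaction or mouse, and changed only genes of at least 20 CPM. These rates therefore need not hold for the real counts, where the spread differs by gene. Named genes were those of 24 lists, the 10 largest changes per direction among called genes of at least 20 CPM with at least 80% of mice alike, and for treatment, where few were called, the 5 smallest p per direction. The members, lists and markers were chosen with earlier results of these data known. Near-identical genes (TRGC1 and TRGC2, XCL1 and XCL2, KLRC1 to KLRC3, CCL4 and CCL4L2) may share reads. P-values measure the spread between these mice, whose donors are not given in the sources used here. Some genes, and results that need them, are not reported here. Intervals cover counting error only.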

Additional observations from a re-analysis of the deposited data

Results flagged for a closer look

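Of 46 groups of 7 mice examined, 8 held a mouse far from the others by Dixon's criterion, which passes about 1 in 20 groups by chance. The share of CD8 T cells with GZMK had its highest maraviroc mouse at 50% (maraviroc 4). The lowest untreated mouse for the share with ITGAE, ITGA1 or ZNF683 stood at 27.3%. RTKN2 had its highest untreated mouse at 80.1 CPM (untreated 3), KLRC2 its highest maraviroc mouse at 232 CPM (maraviroc 2), KLRD1 its highest untreated mouse at 396 CPM (untreated 7) and AHCYL1 its lowest untreated mouse at 46.8 CPM (untreated 2). GZMB had its highest untreated mouse at 1767 CPM (untreated 2, 11 cells) and its highest maraviroc mouse at 1337 CPM (maraviroc 1, 16 cells).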

How the results depend on the processing

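Values here are maraviroc minus untreated in percentage points for shares and counts of called genes for comparisons. Restrictions to cells without TRDC, TYROBP or FCER1G, to mice with at least 20 members, to CD4-bearing comparators and to the narrow NK gate, and the changes of gate for the shares of cells with a gene, were chosen after seeing the data. The number of cells limits the mice with 11, 15 and 16 members most, which were not the shallowest per cell (medians of 8889, 9582 and 7816 UMIs, against 6117 in untreated 4), and the cause of each change below was not tested.

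The GZMB share kept its sign throughout and lost its call in 9 settings: -11.9 in mice with at least 20 members, -5.03 without TRDC, TYROBP or FCER1G, -13.0 at a hashtag limit of 80%, -15.3 and -13.9 with CD8 limits of 1 and 3, -9.76 with CD8A and CD8B both needed, -14.9 without UMIs of myeloid and B cell genes, -12.4 without thinning and -14.2 at 2500 UMIs. Leaving out 1 mouse gave -20.4 to -15.1, and the call was lost without untreated 1, 2, 4 or 7 or maraviroc 1, 3, 4, 5 or 7. The GZMK share ran from 11.3 to 18.4 over the omissions and passed only without untreated 5. Shares far from any call changed sign. IFNG went to -5.86, -0.532, -0.114 and -2.22 (hashtag 80%, no myeloid or B cell UMIs, no thinning, 2500 UMIs), with -1.65 to 3.03. The checkpoint share went to 0.375 at 2500 UMIs, with -7.68 to 3.43. The cycling share went to -2.65, -1.55, -6.71, -2.37, -0.159, -0.0137 and -2.83 (20 members, no TRDC, TYROBP or FCER1G, hashtag 80%, CD8 limit 1, both CD8 genes, no thinning, 2500 UMIs), with -1.16 to 1.89, and the residency share to 1.39 and 1.99 (CD8 limit 1, both CD8 genes), with -5.35 to 2.10. The CD8 share of kept cells ran from -3.78 to 0.152 and that of T cells from -9.60 to -3.59 over omissions.

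For treatment, 2 genes were called, against 1 with a CD8 limit of 1, 1 with at least 20 members and 1 in reaction 1, 6 with both CD8 genes, 102 without a filter on low counts, and 0 without myeloid and B cell UMIs, at hashtag 80%, in reaction 2 and without TRDC, TYROBP or FCER1G (306, 448, 338 and 273 at an unadjusted p under 0.05). Omissions gave 0 to 3. DESeq2 called 3.

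Against CD8-negative T cells, 832 genes were called, and 413 without myeloid and B cell UMIs, 522 at hashtag 80%, 448 without the mouse block, 1460 without the filter on low counts, 127 in reaction 1 alone, 348 with cells thinned to 1500 UMIs (12.51% of the 2781 genes that could then be tested) and 1391 against CD4-bearing cells. There, GNLY, XCL1, XCL2 and TRDC changed sign, to 1.47, 0.69, 1.71 and 0.69 on the log2 scale. Against FOXP3-positive T cells 3285 became 1312 in reaction 1 and 862 with thinning (41.2% of 2093). Against the first NK gate 4613 became 1692 without myeloid and B cell UMIs, 2494 in reaction 1, 1480 with thinning (51.03% of 2900) and 584 against the narrow gate, where NKG7, PRF1, HOPX and CTSW turned to -0.63, -1.06, -0.57 and -0.94. PRF1 and CTSW were also at -0.13 and -0.0293 without myeloid and B cell UMIs. For cycling cells 1531 became 416 in reaction 1 and 220 with thinning (22.7% of 971).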
